A study of Homo sapiens with 22 samples.

Results

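The genes described here are 10 genes of the TGF-beta and activin pathway: TGFB1, INHBA, LTBP1, TGFBR1, TGFBR2, SMAD3, SMAD6, SMAD7, SKI and SKIL. Every region of the study's 4 count tables that overlapped the GRCh38 RefSeq span of one of these genes, extended by 50 kb on each side, was taken as a member. This gave 700 regions of 409446 in all: 230 of 95436 for H3K27ac, 226 of 138731 for Jun, 77 of 66168 for CTCF and 167 of 109111 for Rad21. Within a window every region was taken, by its position alone. A window also holds regions of neighbouring genes, and some of these are named below.

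The chromatin came from K562, a human leukemia cell line with erythroid features, of wild-type genotype in every group and grown in RPMI with serum. The cells received 25 nM PMA, a phorbol ester that activates protein kinase C and drives differentiation of this line along the megakaryocyte path, for 0, 6 or 72 h, and were fixed with formaldehyde. CUT&RUN, which cuts out the DNA beside an antibody's target, was run for H3K27ac (a histone acetylation found at active promoters and enhancers), Jun (part of the AP-1 dimer, a transcription factor) and CTCF (an insulator protein) at 0, 6 and 72 h, and for Rad21 (a subunit of the cohesin ring) at 0 and 72 h. There were 22 libraries in 11 groups of 2. The labels do not say whether the 2 libraries of a group came from separate cultures, so p-values measure only the spread between these libraries, which may be technical. One cell line in culture is the only model, and a signal from a population cannot separate a change in the share of cells from a change per cell.

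TGF-beta and activin are secreted dimers that bind paired serine/threonine kinase receptors, which phosphorylate SMAD2 and SMAD3. The phosphorylated SMADs enter the nucleus with SMAD4 and act on chromatin together with other factors, AP-1 among them. In blood-forming cells TGF-beta is best known for holding stem cells and erythroid precursors back from division, megakaryocytes and platelets are a major store of TGF-beta1, and activin A promotes hemoglobin synthesis in erythroid lines. Latent TGF-beta is tethered to the matrix by LTBP proteins. SMAD6, SMAD7, SKI and SKIL brake the pathway, SMAD7 and SKIL as its own targets.

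The promoter sequences below show which elements lie directly upstream of the starts where the antibodies were counted. RefSeq promoter entries (GRCh38.p14) were found for 9 of the 10 genes, 25 entries in all, and the 250 bases upstream of each start were searched on both strands for the AP-1 site TGANTCA, the cyclic AMP element TGACGTCA, the SMAD element CAGACA, the SMAD palindrome GTCTAGAC and the CTCF core letters CCCTC. These occurred in 1, 2, 5, 1 and 18 of the 25 entries. Among all 35116 promoter entries of the same length the shares were 6.57%, 1.65%, 13.6%, 0.182% and 66.6%. Sequences run 5′ to 3′ along the gene, in lower case, with any of the first 4 motifs in capitals. INHBA is chr7:41703091-41703340 on the minus strand, and none of the first 4 motifs was present in it. LTBP1 is given at its first start, chr2:32946703-32946952, and at an internal start, chr2:33134119-33134368, both on the plus strand. SKIL is chr3:170357465-170357714, SMAD6 is chr15:66701986-66702235, and SMAD3 is an internal start, chr15:67125492-67125741, all on the plus strand.
INHBA: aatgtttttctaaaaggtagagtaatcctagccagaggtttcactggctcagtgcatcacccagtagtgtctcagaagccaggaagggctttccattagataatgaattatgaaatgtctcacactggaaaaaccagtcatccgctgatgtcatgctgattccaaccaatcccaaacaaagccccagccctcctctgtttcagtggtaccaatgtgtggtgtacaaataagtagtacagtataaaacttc
LTBP1 first start: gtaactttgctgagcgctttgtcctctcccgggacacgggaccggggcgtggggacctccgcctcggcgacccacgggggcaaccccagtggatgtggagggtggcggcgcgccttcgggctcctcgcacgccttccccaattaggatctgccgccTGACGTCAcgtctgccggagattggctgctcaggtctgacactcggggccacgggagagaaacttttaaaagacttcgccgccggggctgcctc
LTBP1 internal start: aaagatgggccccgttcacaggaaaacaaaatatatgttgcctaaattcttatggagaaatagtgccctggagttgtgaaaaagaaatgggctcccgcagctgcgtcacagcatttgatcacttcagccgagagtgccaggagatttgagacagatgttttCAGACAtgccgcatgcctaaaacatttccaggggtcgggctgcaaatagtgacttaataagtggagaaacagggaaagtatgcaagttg
SKIL: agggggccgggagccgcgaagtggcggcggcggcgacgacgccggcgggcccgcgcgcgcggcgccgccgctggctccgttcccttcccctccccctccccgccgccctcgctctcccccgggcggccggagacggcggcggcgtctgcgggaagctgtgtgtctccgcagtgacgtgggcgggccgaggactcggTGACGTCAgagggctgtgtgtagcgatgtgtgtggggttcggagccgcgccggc
SMAD6: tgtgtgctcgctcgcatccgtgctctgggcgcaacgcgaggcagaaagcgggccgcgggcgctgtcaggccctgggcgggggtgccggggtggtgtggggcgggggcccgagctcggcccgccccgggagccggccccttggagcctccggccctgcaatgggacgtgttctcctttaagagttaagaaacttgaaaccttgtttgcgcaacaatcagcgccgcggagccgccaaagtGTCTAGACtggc
SMAD3 internal start: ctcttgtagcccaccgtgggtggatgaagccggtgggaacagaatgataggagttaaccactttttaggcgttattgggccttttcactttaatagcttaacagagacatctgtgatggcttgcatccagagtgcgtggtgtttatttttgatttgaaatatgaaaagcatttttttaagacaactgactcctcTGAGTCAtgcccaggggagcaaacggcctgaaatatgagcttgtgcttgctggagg
The capitals mark a TGACGTCA in SKIL and in the first LTBP1 start, a CAGACA in the internal LTBP1 start, a GTCTAGAC in SMAD6 and a TGAGTCA, one form of TGANTCA, in the internal SMAD3 start. A match describes these letters only and was not tested as a bound site.

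Counts in regions summed to between 2553677 and 27266241 per library. They were at most 6068421 for CTCF, and the 72 h Jun libraries, at 17245043 and 18883962, were deeper than any earlier Jun library. Levels are CPM, region counts scaled to a common library size with TMM factors. Changes are log2 fold changes, called log2 changes below, from edgeR's quasi-likelihood test over all regions of an antibody, and a region was called higher or lower at a Benjamini-Hochberg adjusted p under 0.05. The identity of the cells was checked on H3K27ac summed over each gene's window. The fetal globin gene HBG1 stood at 175.0 and 166.0 CPM at 0 h, and the windows of the liver gene ALB and the muscle gene MYOD1 stayed under 3 CPM. All 6 erythroid windows were lower at 6 h. At 72 h KLF1, a factor of erythroid transcription, had a log2 change of -1.76, TAL1 alone was higher, and the platelet integrin gene ITGB3 rose from 86 and 82.7 to 188.7 and 197.7 CPM. Of the other platelet genes, ITGA2B and GP1BA were lower, by -0.37 and -0.41, and GP9 was higher by 0.50. The window of the lymphocyte gene CD3E, which takes in neighbouring genes, was not at 0, at 8.38 to 22.1 CPM.

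H3K27ac around these genes was more often called higher than lower after PMA, mostly through INHBA and LTBP1. At 6 h 109 of 229 tested member regions were higher and 35 lower (62.9% called, against 58.6% of all H3K27ac regions, of which 32.3% higher and 26.3% lower). At 72 h 133 were higher and 53 lower (81.2% called, against 81.5% of all regions). Higher calls made up 58.1% of the tested member regions at 72 h and 43.4% of all regions, and lower calls 23.1% and 38.1%. INHBA and LTBP1 held 12 and 58 of the 133 higher regions. Over the other 8 genes, a division made after the values were seen, 63 of 146 regions were higher and 49 lower at 72 h (43.2% and 33.6%), a higher share near that of all regions, and 51 and 31 at 6 h (34.9% and 21.2%). The median log2 change at 72 h was 0.93 over the members and 0.18 over all regions. The 6 and 72 h comparisons share the 0 h libraries. Between 6 and 72 h 106 member regions were higher and 49 lower, and 63.8% of all regions were called, 33.1% higher and 30.8% lower. The tables name their regions as peaks, so a region drawn as a peak of one time may differ partly through that choice. Of the 230 member regions 229 passed the filter on low counts. The splits depend on the scaling. Where scaling factors came only from regions that hold a peak of all libraries, here called shared-peak factors, they were 139 higher and 17 lower at 6 h, 164 and 29 at 72 h and 122 and 30 from 6 to 72 h, and the median of all regions at 72 h moved to 0.79. With total counts the 6 h split was 137 and 17. By the authors' deposited labels, 150 of the 230 H3K27ac member regions are static, 59 upLate, 16 downEarly and 5 upEarly. These are 65.2%, 25.7%, 6.96% and 2.17%, against 64.3%, 23.1%, 8.08% and 2.79% of all H3K27ac regions. For Jun, CTCF and Rad21 216 of 226, 77 of 77 and 161 of 167 are static, against 89.8%, 98.7% and 98.2% of all regions.

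**Figure D1:**
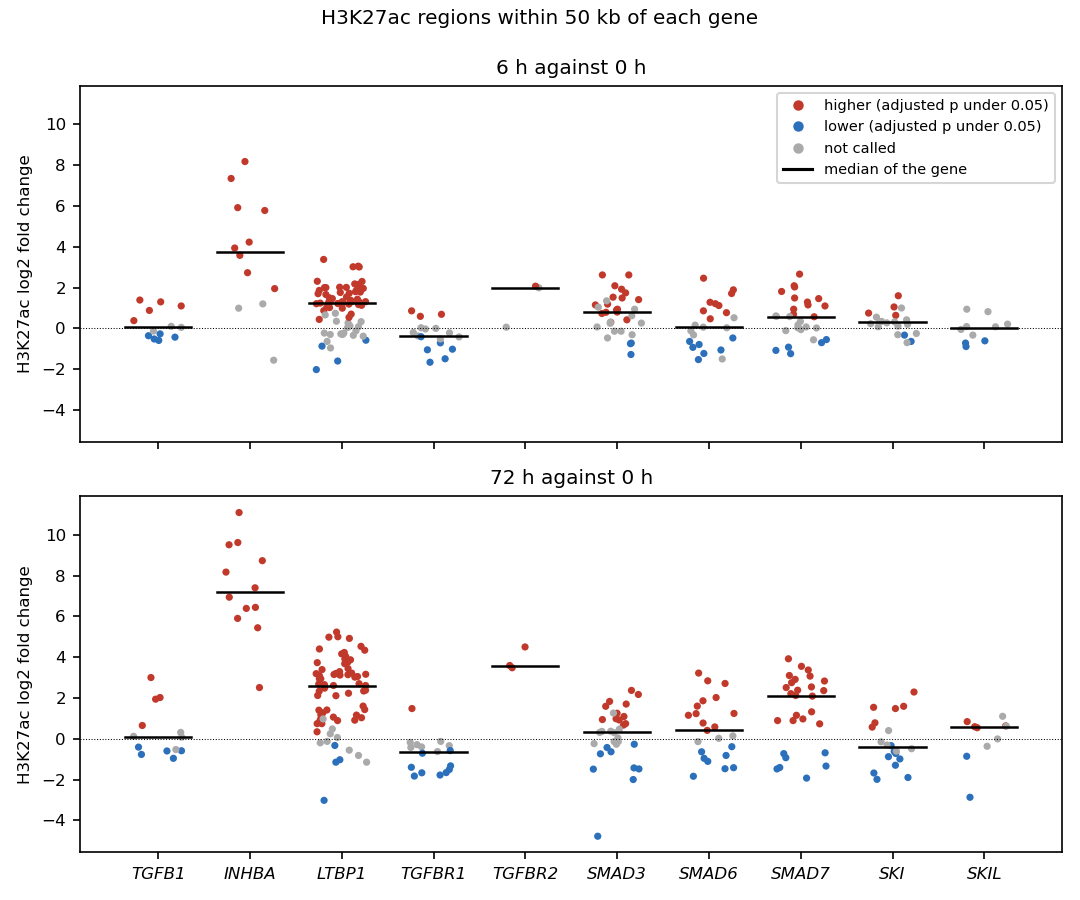
Log2 fold change of each tested H3K27ac region within 50 kb of each gene at 6 h (top) and 72 h (bottom) against 0 h, 1 point per region, coloured by call, with the median of each gene as a bar. All INHBA points lie above 0 at 72 h, with a median of 7.17, LTBP1, TGFBR2 and SMAD7 have medians above 2, and TGFBR1 has a median of -0.63. INHBA regions with no 0 h count are plotted at their fitted values, and the INHBA median with those regions at their lower bound is 6.42.

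The genes differed widely from one another. All 12 H3K27ac regions around INHBA were higher at 72 h, as were 58 of 71 at LTBP1 (4 lower), 21 of 28 at SMAD7 (7 lower) and 3 of 3 at TGFBR2. SMAD6 had 12 higher and 8 lower of 23, SMAD3 12 and 9 of 32, SKIL 4 and 2 of 10 and TGFB1 4 and 5 of 13. SKI had 6 higher and 9 lower of 20, and TGFBR1 1 higher and 9 lower of 17. Beside these counts, 43.4% of all H3K27ac regions were higher and 38.1% lower at 72 h. By a rule, 97 regions were set out for naming: the promoter region (the one of highest mean level where there were several), the region of highest mean level in the window, and the strongest riser and faller of each gene or antibody. Strongest riser and faller mean here the largest changes at 72 h among called regions whose 0 and 72 h libraries did not overlap and whose mean level reached the median of all tested regions of the antibody (a CPM of 3.3 in the H3K27ac table, 3.29 in that of Jun, 7.31 in that of CTCF and 3.98 in that of Rad21), so a region of lower level can have changed more. At 72 h 62 of them were called and 35 were not, and uncalled ones are mostly left out here.

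**Figure D2:**
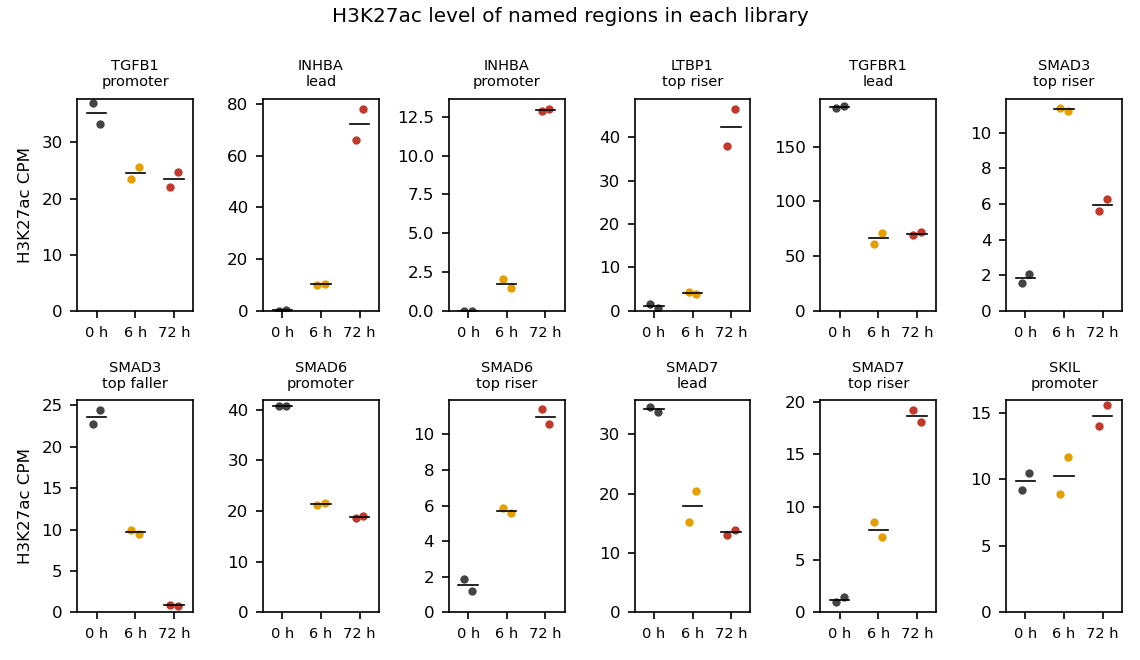
H3K27ac level in CPM in each library at 0, 6 and 72 h for 12 named regions, 1 point per library and a bar at the mean, with axes from 0. The INHBA lead and promoter regions and the LTBP1, SMAD6 and SMAD7 top risers climb at each time. The SMAD3 top riser is highest at 6 h, and the TGFBR1 lead region is below its 0 h level at both later times.

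INHBA encodes the beta A subunit that forms activin A as a homodimer and inhibin A with the alpha subunit. H3K27ac there rose from almost no counts at 0 h. The region of highest level, chr7:41708236-41710479, lies 3.95 kb upstream of the gene span, within the span of the antisense gene INHBA-AS1. Its libraries had 2 and 4 counts at 0 h, or 0.114 and 0.211 CPM, then 10 and 10.5 CPM at 6 h and 66.1 and 78 CPM at 72 h. The 3 times did not overlap. The log2 change was 5.92 (SE 0.31, adjusted p = 2.31e-14) at 6 h, then 8.73 (SE 0.23, adjusted p = 3.53e-20) at 72 h.

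The region at the INHBA promoter printed above, chr7:41703273-41703693, had 0 counts in both 0 h libraries. It stood at 2.03 and 1.48 CPM at 6 h and at 12.9 and 13 CPM at 72 h. With a floor of 3 counts over the 0 h group, this was at least 21.4-fold higher at 6 h and at least 158-fold higher at 72 h. By 6 h 9 of the 12 regions were already called higher, and all 12 were called higher from 6 to 72 h. No INHBA region held an H3K27ac peak in both libraries at 0 or 6 h in the authors' peak lists, and 5 did at 72 h.

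Jun moved at the same places. At 72 h 8 of 9 tested Jun regions around INHBA were higher and none lower, beside 53.7% of all Jun regions called in either direction. Jun at chr7:41709367-41710122, inside the H3K27ac region upstream of the gene, was at 1.02 and 0.285 CPM at 0 h, 7.23 and 11.8 at 6 h, then 17.1 and 19.1 at 72 h. The log2 change was 3.88 (SE 0.44, adjusted p = 2.39e-06) at 6 h, then 4.78 (SE 0.38, adjusted p = 1.06e-08) at 72 h. At 6 h this region and its neighbour chr7:41708372-41708820 were called and the other 7 tested were not, beside 25.3% of all Jun regions called, while H3K27ac was called at 9 regions by then. Jun at the promoter, chr7:41702962-41703554, was at 2.61 and 1.14 CPM at 0 h, 4.07 and 3.27 at 6 h, then 9.71 and 10.1 at 72 h. That region was not called at 6 h and was called at 72 h, with a log2 change of 2.40 (SE 0.33, adjusted p = 3.65e-06).

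CTCF and Rad21 also rose beside INHBA. CTCF at chr7:41711202-41712140, 6.26 kb upstream of the gene span, was at 12.1 and 21.8 CPM at 0 h, 14.7 and 12.9 at 6 h, then 48.8 and 57.4 at 72 h. The 0 and 6 h libraries overlapped and both 72 h libraries lay above them, with a log2 change at 72 h of 1.68 (SE 0.29, adjusted p = 0.00577). The call was lost without either 0 h library, with values of 1.29 and 2.16. The other 4 CTCF regions of the window were not called at 72 h, when 6.79% of all CTCF regions were. Rad21 at chr7:41709603-41710062 was at 0.915 and 1.43 CPM at 0 h and at 10.2 and 9.51 at 72 h, a log2 change of 3.09 (SE 0.43, adjusted p = 2.92e-05). Rad21 over the promoter, chr7:41703156-41703486, was at 0.305 and 0.409 CPM at 0 h and at 6.5 and 6.03 at 72 h, a log2 change of 4.08 (SE 0.61, adjusted p = 6.44e-05). No library held a Rad21 peak over that promoter region at 0 or 72 h. The H3K27ac, Jun and Rad21 regions upstream of the gene overlap one another, and the CTCF region lies beside them.

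**Figure D3:**
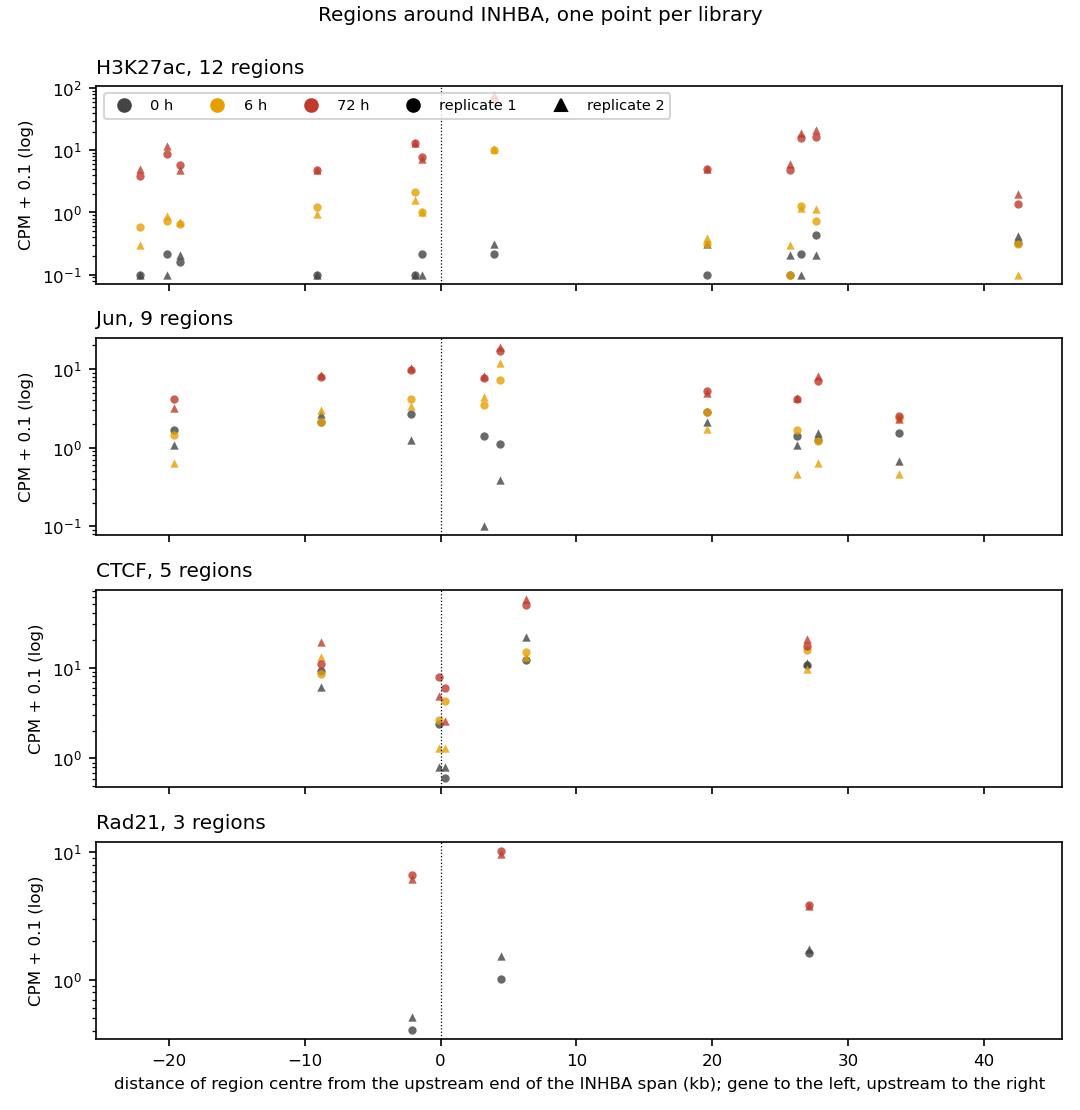
Level of every INHBA region in CPM + 0.1 on a log axis against its distance from the upstream end of the gene span in kb, for H3K27ac, Jun, CTCF and Rad21, with circles and triangles for the 2 libraries of each time. H3K27ac at 72 h (red) lies above 0 h (dark) at all 12 regions, and the highest values sit 3.95 kb upstream for H3K27ac and 6.26 kb upstream for CTCF.

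TGFB1, the gene of the TGF-beta1 ligand, already carried H3K27ac at 0 h, and its window split into gains and losses. Its promoter region, chr19:41352368-41353895, was at 37 and 33.3 CPM at 0 h, 23.4 and 25.6 at 6 h, then 22.1 and 24.7 at 72 h. This was a log2 change of -0.59 (SE 0.11, adjusted p = 3.75e-05) at 72 h, but 0.02 under shared-peak factors, so no direction is given to it. The largest fall and the largest rise in the window lay at neighbours. At the B9D2 and TMEM91 spans chr19:41363687-41365085 fell from 84.1 and 77.9 CPM to 40.2 and 43.3 at 72 h (log2 change -0.96), with Jun inside it falling from 43.3 and 36.7 CPM to 14.7 and 14.3 (-1.46, SE 0.18, adjusted p = 1.43e-06). At the BCKDHA span chr19:41401223-41402190 rose from 2.5 and 1.69 CPM to 16.3 and 17.1 (log2 change 3.00), with Jun rising from 1.6 and 0.856 CPM to 8.33 and 7.48 (2.68, SE 0.42, adjusted p = 2.22e-05). A pair of adjacent regions in no gene span, singled out after their values were seen, came next in size. There chr19:41325731-41326209 went from 2.95 and 3.27 CPM to 12.8 and 12.5 at 72 h (2.02), and chr19:41326375-41326594 from 1.48 and 2 CPM to 6.8 and 6.63 (1.94). Of 16 tested Jun regions of the window 8 were lower and 2 higher at 72 h, beside 25.7% lower and 28% higher of all Jun regions. This split is that with TMM factors, was not counted under other scalings and may depend on them. Only 1 of the lower ones lay in the TGFB1 span, the others in those of CCDC97, B9D2, TMEM91, EXOSC5 and BCKDHA.

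LTBP1, which binds latent TGF-beta in the matrix, held 71 of the 229 tested H3K27ac regions, and 58 of them were higher at 72 h. At the first promoter no change was called. The region there, chr2:32946929-32947128, was at 2.04 and 3.48 CPM at 0 h, 2.24 and 2.46 at 6 h, then 2.79 and 2.04 at 72 h (log2 change -0.20, SE 0.30). Of the 35 tested regions before the internal start printed above, 27 were higher and 3 lower, with a median log2 change of 1.17. Of the 36 at or after it, 31 were higher and 1 lower, with a median of 3.16. That division was made after the values were seen and has no test.

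The strongest riser, chr2:33341769-33343219 and 396 kb into the gene, was at 1.53 and 0.737 CPM at 0 h, 4.34 and 3.89 at 6 h, then 38 and 46.5 at 72 h. The log2 change was 1.86 (SE 0.28) at 6 h, then 5.23 (SE 0.20, adjusted p = 1.12e-17) at 72 h, and the times did not overlap. The region just downstream of the internal start, chr2:33134782-33137730, singled out after its values were seen, was at 10.7 and 9.59 CPM at 0 h, 24 and 25.6 at 6 h, then 89.2 and 99.4 at 72 h (log2 change 3.22, SE 0.12). Rad21 inside it, at chr2:33135623-33136167, rose from 1.22 and 1.23 CPM to 12.1 and 13.9 (3.39, SE 0.40, adjusted p = 5.46e-06). This was the strongest Rad21 riser of the members, while the INHBA promoter region above, of lower mean level, rose more. The Jun region overlapping that Rad21 region, chr2:33135636-33136105, was at 2.9 and 3.57 CPM at 0 h and 5.63 and 4.86 at 72 h and was not called (log2 change 0.69, adjusted p = 0.0554).

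At the first LTBP1 promoter, whose sequence holds TGACGTCA, Jun fell. The region chr2:32946475-32946879 was at 11.6 and 7.99 CPM at 0 h, 6.33 and 3.27 at 6 h, then 3.31 and 2.16 at 72 h. The 0 h libraries lay above all others, and the log2 change was -1.06 (SE 0.35, adjusted p = 0.0291) at 6 h, then -1.84 (SE 0.30, adjusted p = 3.55e-05) at 72 h. Over the whole window Jun was nonetheless higher at 31 and lower at 8 of 72 tested regions at 72 h, beside 28% higher and 25.7% lower of all Jun regions. CTCF was lower at 3 and higher at none of 18 regions there, beside 2.72% lower and 4.07% higher of all CTCF regions. The largest faller, chr2:33033473-33033967, went from 24 and 24.3 CPM at 0 h to 12.5 and 18.9 at 6 h, then 8.21 and 8.34 at 72 h (-1.54, SE 0.29, adjusted p = 0.00893). Its call was lost without any one of the 0 or 72 h CTCF libraries, while its value stayed between -1.55 and -1.50.

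One region of the LTBP1 window stood apart. The region chr2:32916182-32916582, 401 bases long and 30.6 kb upstream of the gene, was at 4648.2 and 3679.2 CPM of H3K27ac at 0 h, 4453.3 and 2648.8 at 6 h, then 2129.8 and 1629.7 at 72 h. Rad21 at chr2:32916244-32916462 was at 5896.0 and 6068.3 CPM at 0 h and 4736.6 and 5272.2 at 72 h. Its H3K27ac log2 change of -1.15 at 72 h became 0.03 with loess offsets. Because of it, H3K27ac summed over the LTBP1 window gave a log2 change of -0.17 (adjusted p = 0.261), and without it, an alternative chosen after seeing the data, 2.13 (SE 0.06, adjusted p = 1.18e-15). Without it the summed level was 81.3 and 78.4 CPM at 0 h, 152.7 and 157.6 at 6 h, then 336.8 and 363.3 at 72 h. Whether the signal of the region left out is specific to the antibodies was not tested.

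At 72 h H3K27ac was more often called lower than higher around TGFBR1, and was called higher, at low levels, around TGFBR2. TGFBR1, the type I receptor kinase, lost H3K27ac at its strongest region, chr9:99073955-99077597, which lies 27.9 kb upstream of the gene span and outside any RefSeq gene. That region was at 185.5 and 187.4 CPM at 0 h, 61.3 and 71.4 at 6 h, then 69.4 and 71.9 at 72 h. The fall was present at 6 h, with log2 changes against 0 h of -1.49 (SE 0.11, adjusted p = 1.33e-11) and -1.40 (SE 0.11, adjusted p = 8e-12) at 6 and 72 h, and 72 h against 6 h was not called (0.09, SE 0.11). Jun inside it, at chr9:99075238-99076027, went from 21.8 and 24.1 CPM to 10.4 and 11.6 at 6 h, then 9.33 and 9.76 at 72 h, a log2 change of -1.05 (SE 0.21) and then -1.26 (SE 0.19, adjusted p = 1.15e-05). Rad21 at chr9:99074140-99074510 fell from 10.8 and 12.1 CPM to 2.45 and 4.39 (-1.76, SE 0.35, adjusted p = 0.000977), the strongest Rad21 faller of the members. A called SMAD7 region of lower mean level, chr18:48948330-48948585, had a log2 change of -2.58. Without Rad21 72 h replicate 1 the value at the TGFBR1 region was -1.32 and no longer called. Of 14 tested Rad21 regions around TGFBR1 4 were lower and none higher, beside 23.3% of all Rad21 regions called.

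Of 3 H3K27ac regions at TGFBR1 promoter entries the highest, chr9:99105579-99106573, was at 20.3 and 16.2 CPM at 0 h, 18.1 and 18.4 at 6 h, then 12.6 and 11.8 at 72 h. Its log2 change of -0.58 at 72 h became 0.03 with shared-peak factors. The next, chr9:99104482-99105211, had a log2 change of -0.71 (adjusted p = 0.000131), and chr9:99103941-99104422 was not called (-0.40). Their values with shared-peak factors are not given here. Those factors moved the median of all H3K27ac regions at 72 h from 0.18 to 0.79, so no direction is given to these regions. The strongest riser of the window, chr9:99085993-99086927, went from 2.9 and 2.63 CPM to 8.97 and 6.41 at 72 h (1.48, SE 0.22).

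TGFBR2, the type II receptor that binds the ligand first, had 3 H3K27ac regions, all at low levels. The highest, chr3:30607013-30607498 and 0.9 kb inside the gene, was at 0.114 and 0.158 CPM at 0 h, 0.839 and 0.394 at 6 h, then 1.27 and 1.89 at 72 h. It was higher at both times, with log2 changes of 2.07 (SE 0.76, adjusted p = 0.023) and 3.48 (SE 0.65, adjusted p = 2.91e-05). No TGFBR2 region held an H3K27ac peak in both libraries at any time. Jun at the promoter, chr3:30606021-30606781, was at 5.23 and 2 CPM at 0 h, 6.1 and 5.45 at 6 h, then 8.05 and 8.79 at 72 h (1.22, SE 0.31, adjusted p = 0.00236 at 72 h). That call was lost without Jun 0 h replicate 2 (0.69) and without Jun 72 h replicate 2 (1.07).

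SMAD3, a receptor-activated SMAD, had more H3K27ac regions higher than lower at 6 h and more lower than higher from then on. At 6 h 17 of its 32 regions were higher and 3 lower (53.1% and 9.38%, beside 32.3% and 26.3% of all regions), and from 6 to 72 h 1 was higher and 17 lower (3.12% and 53.1%, beside 33.1% and 30.8%). Against 0 h, 12 were higher and 9 lower at 72 h (37.5% and 28.1%, beside 43.4% and 38.1%). The strongest riser, chr15:67149818-67150901 and 84.8 kb into the gene, was at 1.59 and 2.05 CPM at 0 h, 11.4 and 11.2 at 6 h, then 5.61 and 6.3 at 72 h. The 3 times were separate, with log2 changes of 2.62 (SE 0.22) at 6 h, 1.70 (SE 0.22) at 72 h and -0.92 (SE 0.17, adjusted p = 6.47e-05) from 6 to 72 h. This place also held the Jun region of highest mean level in the window. Jun at chr15:67149983-67150927 was at 35.9 and 30.3 CPM at 0 h, 35 and 44.2 at 6 h, then 25 and 24.1 at 72 h, with no call against 0 h (0.26, SE 0.20, and -0.43, SE 0.19) and a call of -0.69 from 6 to 72 h.

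The internal SMAD3 start whose sequence holds TGAGTCA lies in chr15:67125081-67126044. H3K27ac there was at 8.46 and 11.5 CPM at 0 h, 16.8 and 18 at 6 h, then 13 and 11.7 at 72 h, with a log2 change of 0.80 (SE 0.15, adjusted p = 7.64e-05) at 6 h and no call at 72 h (0.30). H3K27ac at 2 other SMAD3 starts, chr15:67098395-67098883 and chr15:67137341-67138064, was called lower at 72 h (adjusted p = 9.06e-09 and 0.0428). Jun over the internal start, chr15:67125383-67126052, had a peak in both libraries at every time. Its levels were 15.4 and 17.1, 19.9 and 24.3, and 16.3 and 15.6 CPM at 0, 6 and 72 h, and none of its comparisons was called. The strongest faller lay outside the gene, in the span of the neighbour AAGAB. There chr15:67207336-67209223 went from 22.7 and 24.4 CPM to 9.93 and 9.5 at 6 h, then 0.905 and 0.801 at 72 h (-4.78, SE 0.19, adjusted p = 1.54e-17). Jun inside it, at chr15:67207705-67208199, fell from 8.28 and 7.14 CPM to 2.71 and 1.27 and then 0.426 and 0.465 (-4.08, SE 0.41, adjusted p = 1.01e-07). The strongest H3K27ac region of the window, chr15:67090498-67092518, held 43.5 and 45.8 CPM at 0 h and 38.5 and 35.4 at 72 h, and its direction changed with the scaling.

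The inhibitory SMADs each combined gains and losses. SMAD6, which mainly restrains the BMP branch, lost H3K27ac at its promoter, chr15:66700258-66702563, which takes in the printed sequence with the SMAD palindrome. The level was 40.6 and 40.7 CPM at 0 h, 21.1 and 21.6 at 6 h, then 18.7 and 19 at 72 h, with log2 changes of -0.93 (SE 0.11, adjusted p = 8.29e-08) and -1.11 (SE 0.11, adjusted p = 7.81e-10). The 0 h libraries lay above all the others. Inside the gene span 9 of 11 regions were higher and 2 lower at 72 h, and outside it 3 of 12 were higher and 6 lower. That division was made after the values were seen, and gains and losses lay on both sides of it. The intragenic region chr15:66730368-66731199, 28.5 kb from the start, rose from 1.87 and 1.21 CPM to 5.88 and 5.56 at 6 h, then 11.4 and 10.6 at 72 h (2.84, SE 0.22, adjusted p = 1.15e-11). Jun at the same place, chr15:66730378-66731138, rose from 5.66 and 8.28 CPM to 19.2 and 19.4 at 6 h, then 21.8 and 18.5 at 72 h. Its log2 change was 1.47 (SE 0.24) at 6 h, then 1.53 (SE 0.22, adjusted p = 7.93e-06) at 72 h, with no call from 6 to 72 h (0.06, SE 0.20), while H3K27ac rose again over that time (0.95, SE 0.18).

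SMAD7, the inhibitor of TGF-beta and activin receptors, had all its lower H3K27ac regions at 72 h inside its span. Inside its span 7 of 9 H3K27ac regions were lower and 2 higher at 72 h, while all 19 tested regions outside it were higher. The median log2 change was -0.93 inside and 2.51 outside, a division made after the values were seen. The strongest region, chr18:48933732-48935284 within the gene, fell from 34.6 and 33.7 CPM to 15.2 and 20.5 at 6 h, then 13.1 and 13.9 at 72 h (-1.34, SE 0.13, adjusted p = 5.75e-10). Jun beside it, at chr18:48932845-48933459, fell from 15 and 12.4 CPM to 3.39 and 4 and then 3.03 and 2.32 (-2.35, SE 0.25, adjusted p = 2.18e-07).

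On the upstream side of SMAD7, 42.3 kb from the span, chr18:48992647-48993976 rose from 1.02 and 1.42 CPM to 8.53 and 7.18 at 6 h, then 19.2 and 18.1 at 72 h (3.92, SE 0.21, adjusted p = 4.27e-15). Jun there, at chr18:48993416-48993906, went from 0.581 and 2.14 CPM to 7.91 and 10.2 at 6 h, then 6.63 and 6.51 at 72 h. The log2 change was 2.73 (SE 0.41, adjusted p = 4.48e-05) at 6 h, and the region was called higher at 72 h too (adjusted p = 4.67e-05), with no call between 6 and 72 h. The promoter region of higher level, chr18:48950938-48951958, was at 6.82 and 8.74 CPM at 0 h, 7.9 and 8.46 at 6 h, then 12.1 and 13.7 at 72 h (0.73, SE 0.16, adjusted p = 0.000193), and the other, chr18:48942634-48942841, was called higher as well (2.09).

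**Figure D4:**
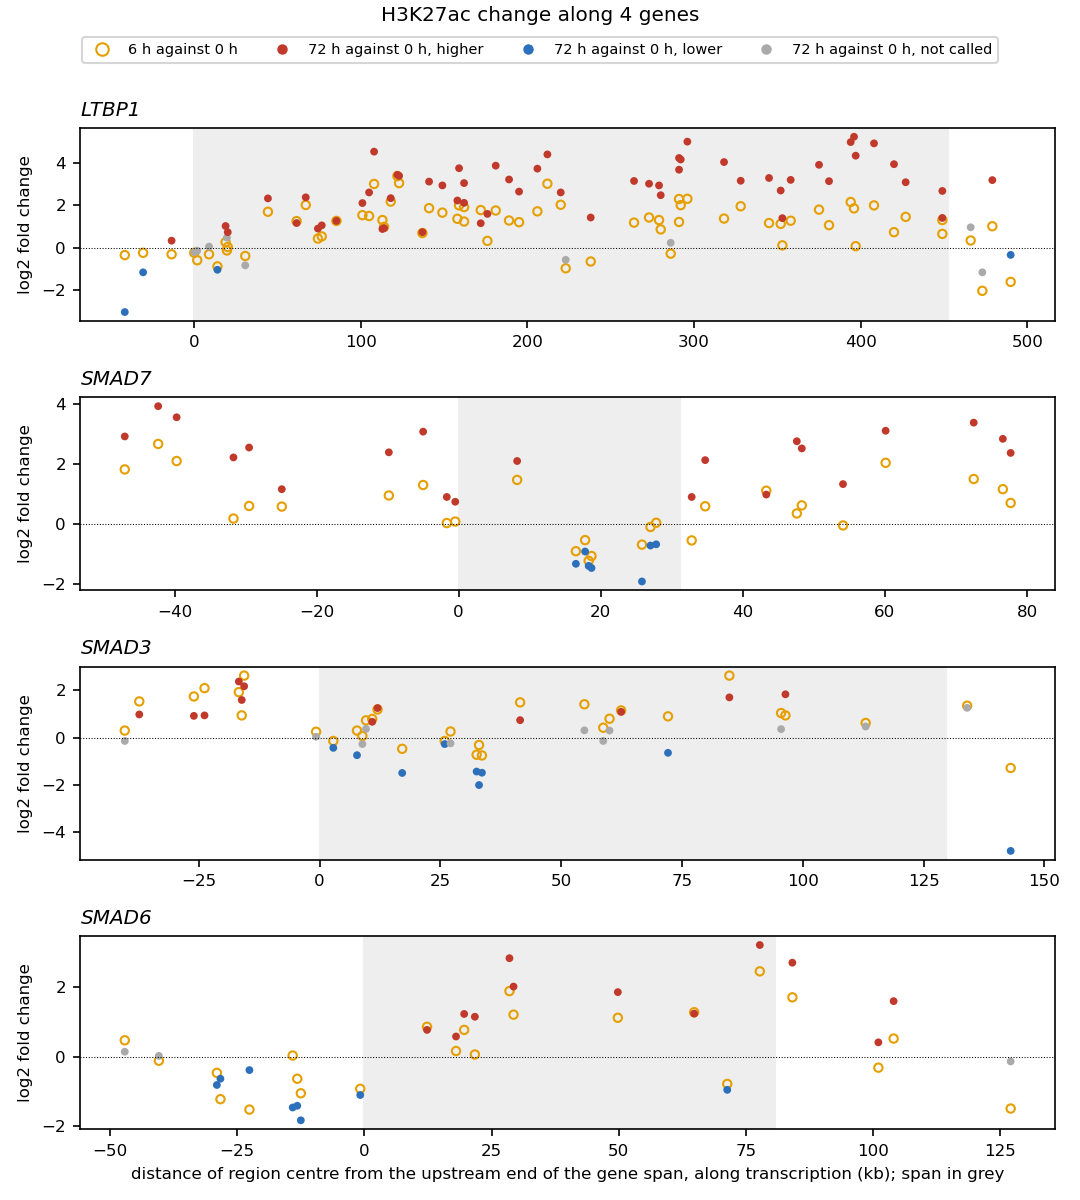
H3K27ac log2 change of each tested region of LTBP1, SMAD7, SMAD3 and SMAD6 against its distance in kb from the upstream end of the gene span, in the direction of transcription, with the span in grey, open circles for 6 h and filled points for 72 h coloured by call. Blue points lie inside the SMAD7 span, where 7 of 9 regions are lower, and upstream of SMAD6. The SMAD6 span itself has 9 of 11 regions higher and 2 lower. They also lie inside the SMAD3 span, where 8 of 22 regions are lower, and at 4 regions of the LTBP1 window.

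SKI and SKIL encode corepressors that bind SMAD complexes. SKI had 4 H3K27ac regions higher and 2 lower of 20 at 6 h (20% and 10%, beside 32.3% and 26.3% of all regions). At 72 h 6 were higher and 9 lower (30% and 45%, beside 43.4% and 38.1%). Its strongest riser, chr1:2255379-2256316 within the gene, went from 2.56 and 2.11 CPM to 5.32 and 4.43 at 6 h, then 6.77 and 6.77 at 72 h (1.54, SE 0.22), and regions of lower level had log2 changes of up to 2.29. The strongest region of the window, in the span of FAAP20, was at 22.7 and 23.9 CPM at 0 h and 16.9 and 19.9 at 72 h, and its direction changed with the scaling. With TMM factors Jun was lower at 9 of 13 regions of the SKI window at 72 h and higher at 2. These were 69.2% and 15.4%, beside 25.7% and 28% of all Jun regions. This split was not counted under other scalings. Shared-peak factors moved the median of all Jun regions at 72 h from 0.17 to 0.96. The direction of Jun at chr1:2180213 in this window changed with the scaling. Of the 4 inside the gene span 2 were lower and 1 higher, so most of the lower ones lie outside the gene. The strongest Jun faller, chr1:2227558-2228014, lies 0.533 kb upstream of the gene and went from 12.2 and 13.1 CPM to 7.46 and 5.81 at 6 h, then 4.17 and 3.25 at 72 h (-1.77, SE 0.24, adjusted p = 3.39e-06).

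At the SKIL promoter Jun and H3K27ac moved apart. Jun at chr3:170357242-170357884, which spans the printed sequence with TGACGTCA, was at 21.5 and 17.1 CPM at 0 h, 11.8 and 12.5 at 6 h, then 5.73 and 5.83 at 72 h. Each time lay below the one before, with log2 changes of -0.67 (SE 0.22, adjusted p = 0.0308) and -1.74 (SE 0.21, adjusted p = 6.99e-07). H3K27ac over the same start, chr3:170357350-170358193, was at 9.2 and 10.5 CPM at 0 h, 8.88 and 11.7 at 6 h, then 14 and 15.6 at 72 h, a log2 change of 0.59 (SE 0.15, adjusted p = 0.00104) at 72 h. The strongest H3K27ac region, chr3:170355685-170356835 and 1.46 kb upstream, dipped and recovered. It was at 28.6 and 32.8 CPM at 0 h, 15.2 and 17.7 at 6 h, then 31.7 and 29.3 at 72 h, with log2 changes of -0.89 (SE 0.12, adjusted p = 9.21e-07) at 6 h, then -0.01 (SE 0.11) at 72 h.

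Over all 10 genes, Jun was higher at 35 and lower at 29 of 216 tested regions at 6 h (29.6% called, against 25.3% of all Jun regions, 13.1% higher and 12.2% lower) and higher at 61 and lower at 54 at 72 h (53.2%, against 53.7%, 28% higher and 25.7% lower). LTBP1 supplied 31 of the 61 higher regions, and 10 of the 226 member regions did not pass the filter on low counts. From 6 to 72 h 27 were higher and 23 lower, beside 26.2% of all regions called, 12.7% higher and 13.4% lower. These splits depend on the scaling too. At 6 h they were 43 higher and 20 lower with total counts and 42 and 21 with shared-peak factors, and from 6 to 72 h 52 and 7, 77 and 4, and, with loess offsets, 29 and 14. At 72 h they were 97 higher and 27 lower with total counts and 120 and 18 with shared-peak factors, under which the median of all Jun regions moved from 0.17 to 0.73 and 0.96. Without Jun 72 h replicate 2 the 72 h count was 75 in place of 115. From 6 to 72 h it was 14 without Jun 72 h replicate 1 and 11 without replicate 2, in place of 50. The members with a Jun peak in both libraries numbered 53 at 0 h, 46 at 6 h and 133 at 72 h, and those with an H3K27ac peak 56, 55 and 116, counts that also follow the depth of the libraries.

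The antibodies were set against each other where their regions overlapped by at least 1 bp, as a description at 72 h. The calls are those with TMM factors only, and other scalings, which shift the Jun split as given above, were not tried here. Of 47 member H3K27ac regions that overlapped a Jun region called higher, 44 were higher and none lower (93.6% higher, against 96.7% of 21673 such regions in all). Of 46 that overlapped a Jun region called lower, 20 were lower and 15 higher. That is 43.5% lower and 32.6% higher, against 71.3% lower and 9.26% higher of 23238 such regions in all. The SKIL promoter and regions of LTBP1, SKI and SMAD7 are among those with lower Jun and higher H3K27ac. Of 29 that overlapped a Rad21 region called higher, 28 were higher, and all 4 that overlapped a Rad21 region called lower were lower, against 88.6% and 90.4% over all such regions.

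**Figure D5:**
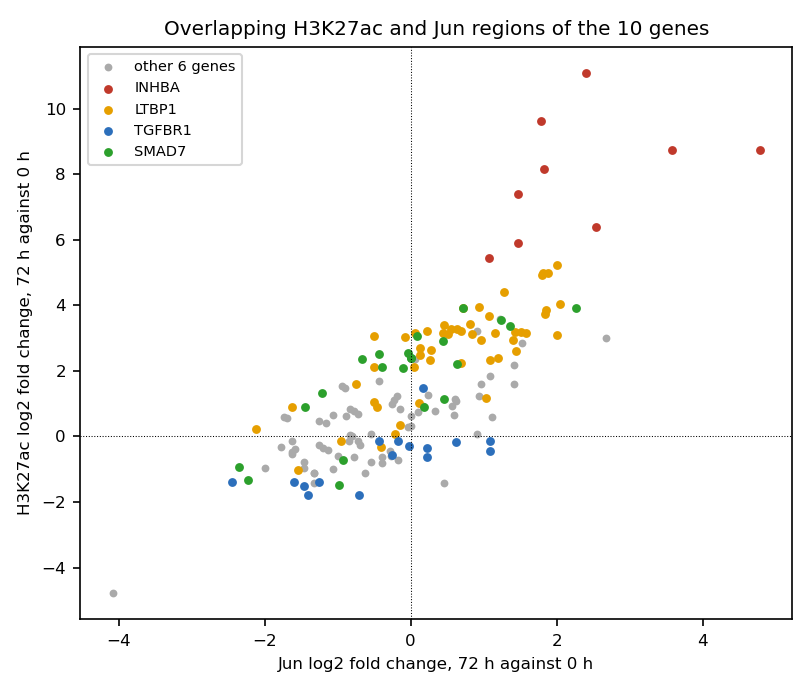
H3K27ac log2 change against Jun log2 change, both 72 h against 0 h, for 170 pairs of overlapping regions of the 10 genes, with 4 genes in colour. INHBA points (red) lie above 0 on both axes, most TGFBR1 points (blue) lie below 0 for H3K27ac, and the upper left holds regions of LTBP1, SMAD7 and other genes with lower Jun and higher H3K27ac.

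CTCF changed at few of these regions. At 6 h edgeR called none of 69 tested, beside 2.65% of all CTCF regions, 2.33% higher and 0.325% lower. An unadjusted p under 0.05 was found for 9, and DESeq2 also called 0. At 72 h 2 were higher and 3 lower (7.25% called, against 6.79% of all, 4.07% higher and 2.72% lower), the INHBA and LTBP1 regions above and chr15:67127975-67128458 within SMAD3. The SMAD3 region was at 0.505 and 0.714 CPM at 0 h, 3.52 and 1.21 at 6 h, then 7.53 and 3.34 at 72 h (3.09, SE 0.82, adjusted p = 0.0345). That region was picked out after its values were seen. With total counts 15 were higher and 1 lower, with shared-peak factors 6 and 1, and with only the 0 and 72 h libraries in the fit 15 and 4. Without either 6 h library 18 were called, without either 72 h library 1, and without either 0 h library none was called. From 6 to 72 h 1 was higher, beside 2.18% of all regions called, 0.451% higher and 1.73% lower.

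Rad21 was higher at 29 and lower at 12 of 137 tested member regions at 72 h (29.9% called, against 23.3% of all Rad21 regions). Higher calls made up 21.2% of the members and 15.4% of all regions, and lower calls 8.76% and 7.91%. LTBP1 held 16 of the 29 higher regions, INHBA 2, and SMAD3, SMAD6 and SMAD7 3 each. The 16 at LTBP1 were 39% of its 41 tested regions, so the larger share of higher calls came mostly from that gene. Without Rad21 72 h replicate 1 the count of called regions was 18 and without replicate 2 it was 24, in place of 41. DESeq2 called 15. Of the 167 member regions 30 did not pass the filter on low counts.

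Summed over each gene's window, H3K27ac gave one value per gene. Here CPM is scaled to the counts summed over all gene windows, which overlap one another, so it is not the scale of the region levels. At 72 h 7 of the 10 windows were higher and 1 lower, where 85.5% of all gene windows were called, 42.6% higher and 42.8% lower. INHBA went from 0.213 and 0.204 CPM at 0 h to 4.15 and 4.03 at 6 h, then 36.7 and 41.5 at 72 h (7.54). SMAD7 went from 26.7 and 26.4 CPM to 33.4 and 33.1 and then 68 and 69.7 (1.38), and SMAD3 from 50.1 and 49.7 CPM to 73 and 74.9 and then 60.6 and 57.5 (0.57 at 6 h, 0.24 at 72 h). TGFBR1 fell from 76.5 and 78 CPM to 49.4 and 51.6 and then 55.4 and 53 (-0.51). TGFBR2 stayed under 1 CPM. The windows of SMAD6, SMAD3 and TGFB1, called higher by 0.25, 0.24 and 0.14, became -0.02, -0.03 and -0.14 with the scaling factors of the region fit, and the split was then 4 higher and 3 lower. At 6 h 5 windows were higher and 2 lower, where 71.5% of all windows were called, 36% higher and 35.4% lower, with 4 and 4 under the region factors and 6 and 1 with total counts. From 6 to 72 h 6 were higher and 2 lower (74.5% of all windows called, 39.9% higher and 34.5% lower), with 5 and 3 under the region factors and with total counts.

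For Jun the INHBA window was higher and the SKI window lower at 6 h, beside 50.5% of all windows called, 25.3% in each direction, and 1 was higher and 2 lower under the region factors. At 72 h TGFBR2, INHBA and LTBP1 were higher and TGFB1, SKI and SKIL lower, beside 74.2% called, 37.5% higher and 36.7% lower. Under the region factors that split was 2 higher and 7 lower. From 6 to 72 h 3 were higher and 3 lower, beside 52.3% called, 27.9% and 24.4%, with 1 and 4 under the region factors. For CTCF edgeR called no window at 6 h and DESeq2 called 0, and 2 of the 10 had an unadjusted p under 0.05 (5.83% of all called, 4.19% higher and 1.65% lower). At 72 h INHBA and SMAD3 were higher (18.6% of all called, 10.3% higher and 8.34% lower), and from 6 to 72 h INHBA (7.18%, 3.1% and 4.09%). For Rad21 TGFB1, INHBA, SMAD3 and SMAD7 were higher and TGFBR1 lower at 72 h, beside 29.3% of all windows called, 17.2% higher and 12.1% lower. With total counts the Rad21 split was 1 higher and 2 lower, and under the region factors 3 and 2.

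Of 51 other genes of the pathway that were listed, 46 had a testable H3K27ac window. At 72 h 22 were higher and 18 lower, with a median log2 change of 0.08 beside -0.02 over all windows, and with the factors of the region fit 19 were higher and 23 lower. Windows of neighbouring genes share regions, as do those of the receptor genes ACVR1B and ACVRL1, which may not be separate results. Among ligands, TGFB2 fell from 50.3 and 47.3 CPM at 0 h to 13.2 and 14.1 at 6 h, then 8.88 and 8.07 at 72 h (-2.52), and TGFB3 fell by 2.21 on the log2 scale. BMP6, a ligand of the BMP branch, rose from 16.1 and 15.6 CPM to 57.1 and 62.7 (1.92). The integrin genes ITGB6 and ITGB8, whose products release TGF-beta from its latent form, rose by 6.66 and 2.19, ITGB6 from 0.471 and 0.307 CPM to 36.8 and 41.4. FST, the activin-binding follistatin, rose by 4.44 but stayed under 1 CPM. Of target genes, PMEPA1 rose from 0.191 and 0.296 CPM to 7.07 and 8.31 (4.96) and ID3 from 30.6 and 28.5 to 63.7 and 66 (1.14), while ID1 fell from 39.7 and 42.1 to 28.2 and 30.7 (-0.47). Among SMADs, SMAD2 fell from 20.6 and 20.2 CPM to 12.7 and 11 (-0.78), SMAD5 rose from 11.1 and 10.9 to 21.5 and 21.4 (0.96), and SMAD4, at 8.01 and 7.76 CPM at 0 h and 7.18 and 6.86 at 72 h, was not called.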

How the data were processed

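CUT&RUN was measured in 22 K562 libraries, 11 groups of 2. Per the submitters' processing notes the authors used Trim Galore 0.4.3, BWA 0.7.17, SAMtools 1.9, deepTools 3.0.1, MACS2 and bedtools 2.26. These notes name hg19 and hg38 without a role, and the positions in the files fit hg38. The 4 deposited tables hold raw read counts per region and library, beside the authors' log2 fold changes and adjusted p-values, of which only the region labels were used. Each library's peak list holds the authors' fold enrichment ratio and -log10 p and q values, and peaks were used to mark which regions a library's peaks overlap by at least 1 bp.

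Counts were tested here with edgeR 4.0.16 in R 4.3.3 (quasi-likelihood, filterByExpr, TMM, all libraries of an antibody in one fit), with Benjamini-Hochberg adjustment over all regions and a threshold of 0.05, after the script was tested on simulated data. Gene windows are counts summed over all regions within 50 kb of a gene span. DESeq2 1.42.0, limma 3.58.1 loess offsets, other scalings and filters, the replicate block and leaving out each library were alternatives. With 2 libraries against 2, an exact permutation test cannot go below p = 0.333, so none was used for single values. Regions were named by a rule: for each gene and antibody the promoter region of highest mean level, the region of highest mean level, and the largest rise and fall at 72 h among called regions with a mean CPM at or above the median of all tested regions of that antibody and with 0 and 72 h libraries that do not overlap, the last pair once over all genes for CTCF and Rad21. The genes, lists and rule were chosen with earlier results of these data known. CPM floors and intervals cover counting error only. Values of some listed genes are not reported here.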

Additional observations from a re-analysis of the deposited data

How the results depend on the processing

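Of the 62 named regions called at 72 h, 50 kept their call and direction under all 3 other scalings and 42 under every alternative run, while 13 lost the call when 1 library was left out. Leaving out a library leaves its group with 1, which is then assumed to vary like the other groups. Directions that reversed at 72 h were those of H3K27ac at LTBP1 chr2:32916182 (0.03, loess offsets), SKI chr1:2194534 (0.27 with shared-peak factors, 0.08 loess), SMAD3 chr15:67090498 (0.33, 0.26), TGFB1 chr19:41352368 (0.02) and TGFBR1 chr9:99105579 (0.03), of Jun at LTBP1 chr2:33022995 (0.06 with total counts, then 0.29, 0.36) and SKI chr1:2180213 (0.01, 0.02), and of H3K27ac windows with the region fit's factors (TGFB1 -0.14, SMAD3 -0.03, SMAD6 -0.02, SKI -0.23), with LTBP1 at 2.13 without its highest region. The cause was not tested. Within gene spans alone, where fewer regions are tested, calls numbered 93, 114 and 92 for H3K27ac (6 h, 72 h and 72 h against 6 h), 33, 65 and 25 for Jun, 0 for CTCF 72 h against 6 h and 26 for Rad21. DESeq2 gave 39 Jun calls at 6 h and 20 for 72 h against 6 h, 2 for CTCF at 72 h (1 window), and 15 for Rad21 (3 windows). Shared-peak factors gave 81 Jun calls for 72 h against 6 h. CTCF calls were 1 at 6 h with total counts, 16 at 72 h and 7 for 72 h against 6 h, 2 at 72 h with loess offsets or a mean count of at least 50, 19 with the 2 time points alone, and 1 window with the region fit's factors. Rad21 calls were 8 with a mean count of at least 50, and 3 windows with total counts. With 1 library left out, calls ranged from 75 to 126 for Jun at 72 h, from 11 to 50 for 72 h against 6 h (windows 2 to 6), from 0 to 1 for CTCF at 6 h, 0 to 18 at 72 h (windows 1 to 2), 1 to 6 for 72 h against 6 h (windows 1 to 2), and 18 to 41 for Rad21 (windows 2 to 5). The labels do not say whether the shared replicate numbers pair the samples, and 2 libraries a group cannot settle it. Same-numbered CTCF libraries deviated together with r of 0.124, 0.0796 and 0.103, other antibodies with r between -0.022 and 0.061. With the replicate number as a block CTCF calls were 1 at 6 h, 10 at 72 h and 2 for 72 h against 6 h, and Rad21 calls 47.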
